A study of Mus musculus with 4 samples.

Results

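The genes described here are 8 genes of mouse chromosome 16 that encode receptors and ligands through which T cells are restrained or costimulated: Cd86, Cd80, Tigit, Cd200r1, Cd200r4, Btla, Cd200 and Cd96, in their order along the chromosome. They were chosen by name, as 8 of 21887 protein-coding genes placed on chromosomes, but with earlier results of these data known. Their standing among all genes, given below, is therefore a description and not an unselected comparison. Each was examined over its gene body and 100 kb on each side. The mark measured was trimethylation of lysine 9 of histone H3 (H3K9me3), mapped by native chromatin immunoprecipitation and sequencing (ChIP-seq), in which chromatin that was not cross-linked is cut with micrococcal nuclease. The cells were wild-type CD8+ T cells of the C57BL/6 strain, either naive (day 0) or cultured for 3 days with interleukin-2 and anti-CD3 and anti-CD28 antibodies (day 3). There was 1 ChIP library per day, so that each difference below is between 2 libraries, has no replicate check and carries no test. The labels do not say how many animals a library came from, and culture, activation and day in the dish cannot be told apart.

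H3K9me3 is a mark of heterochromatin, where it is bound by HP1 proteins and goes with low transcription. BTLA and TIGIT are inhibitory receptors of lymphocytes: BTLA binds HVEM, a member of the TNF receptor superfamily, while TIGIT and CD96 bind the poliovirus receptor, CD155, in competition with the activating receptor CD226. CD200 is a membrane glycoprotein whose receptor CD200R1 sends an inhibitory signal, and the mouse paralog CD200R4 pairs instead with an activating adaptor. CD80 and CD86, best known from antigen-presenting cells, are the ligands of CD28, which costimulates T cells, and of CTLA-4, which inhibits them.

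The authors deposited a list of significant islands for each library, an island being a run of enriched windows merged into 1 stretch, with a whole number read here as the count of ChIP reads in it. The day 0 list held 19989 islands with 3402787 reads and the day 3 list 47553 islands with 10423178 reads. Median island density was 34.1 reads per kb in the day 0 list and 52.9 in the day 3 list, not corrected for depth, and the least dense day 3 island also had 34.1. An absent island means that nothing passed the authors' threshold, not that the mark was absent, and a day 0 island below 34.1 reads per kb would have been less dense than any island of the day 3 list. Over the autosomes, day 3 islands covered 1.98 times as much sequence as day 0 islands, and over chromosome 16 they covered 2.51 times as much. Islands over 23 marker genes do not tell cell types apart. On day 0, 4 of the 23 had one (17.4%): Cd4, the T cell gene Cd5, the B cell gene Cd79b and the myeloid gene Csf1r. On day 3, 3 had one (13.0%): the T cell gene Cd247, the B cell gene Ms4a1 and the myeloid gene Adgre1. Over all protein-coding genes the shares were 22.7% and 27.1%. Cd8a, Cd8b1, Cd3d, Cd3e and Cd3g were among the 16 markers with none on either day.

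Islands lay over 3 of the 8 gene bodies on day 0 (Cd86, Tigit and Cd96) and over 7 on day 3, all but Cd200r4. The 7 include Tigit, whose day 3 island lay in a stretch shared with the gene Zbtb20 and cannot be assigned to either. Outside that stretch Tigit had an island on day 0 only. Among all protein-coding genes an island over the body was found for 22.7% on day 0 and 27.1% on day 3. The members are longer than most genes, with bodies of 26950 to 97203 bp, and among the 5660 protein-coding genes in this range of length the shares were 37.9% on day 0 and 45.1% on day 3. The day 0 share of the members, 37.5%, was therefore that of genes of their length, while the day 3 share was 87.5%. Neither comparison was limited to genes of chromosome 16. Of the members, 4 had an island on day 3 only (Cd80, Cd200r1, Btla and Cd200), against 11.2% of all genes and 18.4% of genes of this length. None had one on day 0 only, which among 8 genes does not stand apart from the 6.75% and 11.2%. This also depended on the longer day 3 list. With that list cut to the length of the day 0 list, keeping the islands with the most reads, Cd86 and Tigit had one on day 0 only. In Cd86, Tigit and Cd96, which had islands on both days, none of the 3 day 0 islands over the bodies shared a base with any of the 9 day 3 islands over the bodies.

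**Figure D1:**
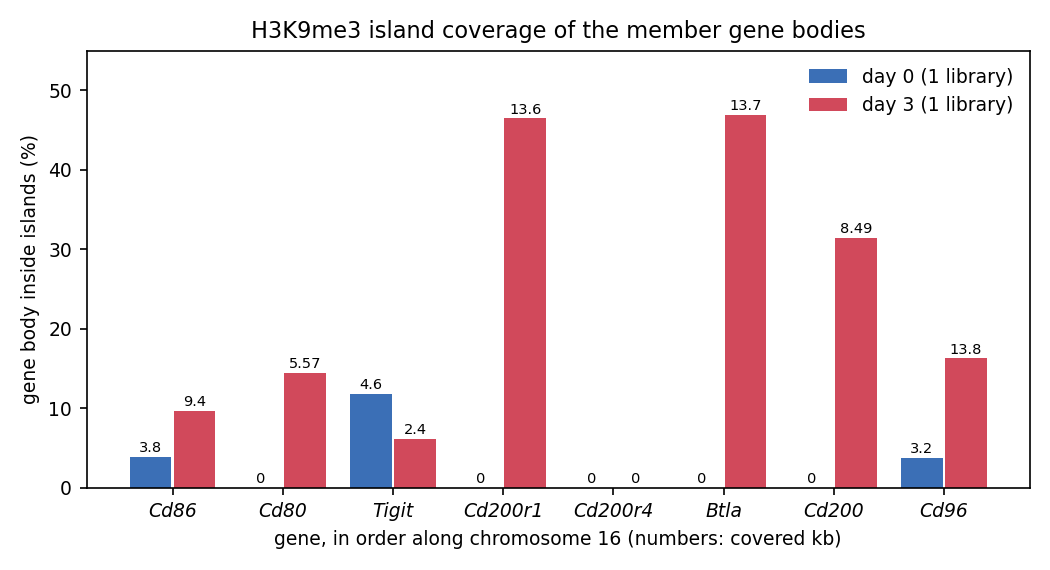
Share of each member gene body inside H3K9me3 islands (vertical axis, percent) on day 0 and day 3, 1 library per day, with the covered kb printed above each bar. Btla and Cd200r1 reached 46.9% and 46.5% on day 3 from no island on day 0, Tigit had 4.6 kb in its day 0 island and 2.4 kb in its day 3 island, and Cd200r4 had no island over its body on either day.

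**Figure D2:**
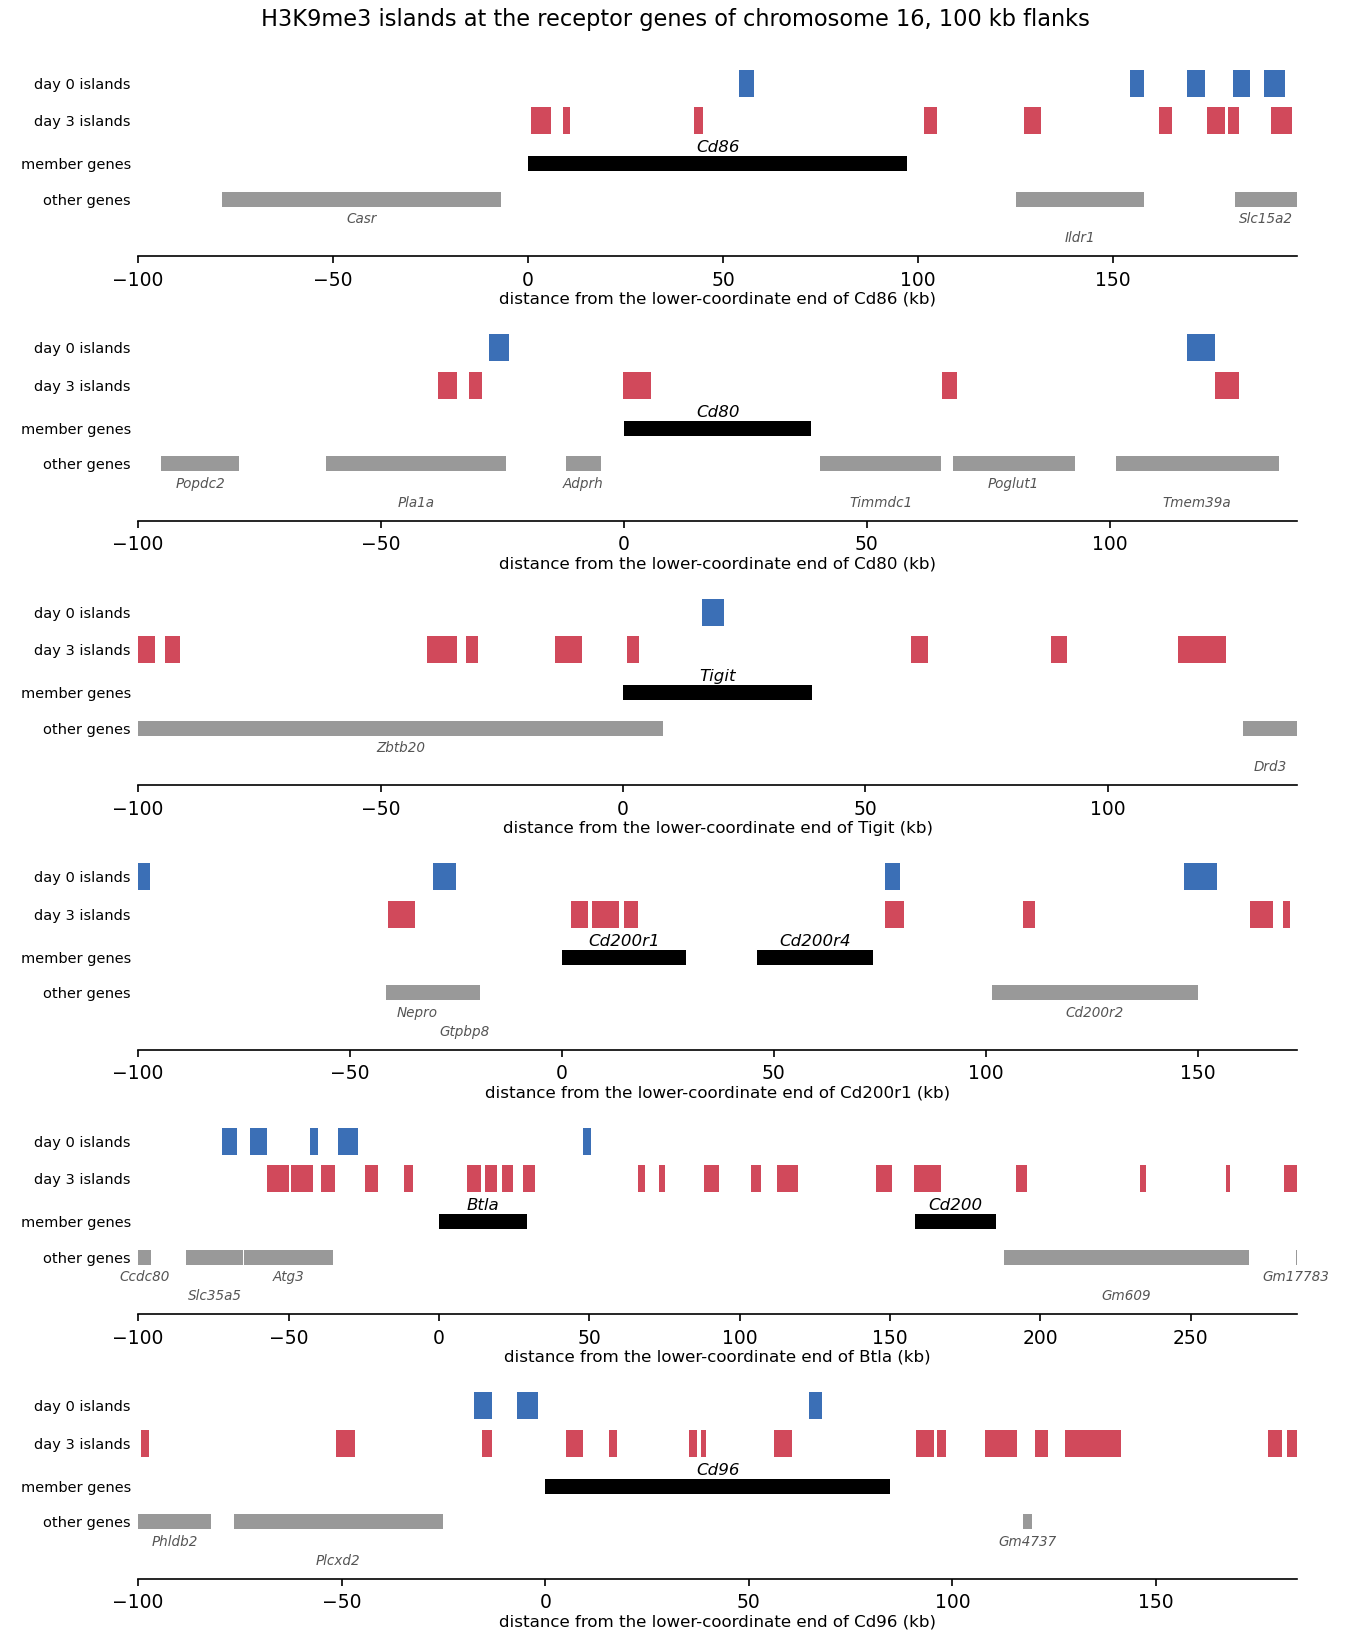
Islands of day 0 (blue) and day 3 (red) at the 8 genes (black) and the other protein-coding genes (grey) within 100 kb, with members that share flanks drawn together and the distance in kb from the lower-coordinate end of the first member on each horizontal axis. The Btla and Cd200 panel shows the run of day 3 islands across both genes, with no day 0 island beyond the one just above Btla, and the Tigit panel the single day 0 island inside the gene.

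To show where islands stood relative to gene starts, promoter sequences were taken from RefSeq (GRCm38.p6, the assembly that mm10 names), which had an entry for 6 of the 8 members and none for Cd86 and Cd200r1. Those printed are of the 3 members with an island over the body on day 3 only that have an entry. Each runs 5' to 3' on the gene's strand from 250 bases before the start site to 50 after it, with CG dinucleotides in capitals. The start site is that of the RefSeq entry, which can lie inside the annotated gene borders. The Cd80 promoter, chr16:38458683-38458982 on the plus strand, lay wholly inside a day 3 island. The Btla promoter, chr16:45224087-45224386 on the plus strand, and the Cd200 promoter, chr16:45409004-45409303 on the minus strand, lay outside islands on both days.
Cd80: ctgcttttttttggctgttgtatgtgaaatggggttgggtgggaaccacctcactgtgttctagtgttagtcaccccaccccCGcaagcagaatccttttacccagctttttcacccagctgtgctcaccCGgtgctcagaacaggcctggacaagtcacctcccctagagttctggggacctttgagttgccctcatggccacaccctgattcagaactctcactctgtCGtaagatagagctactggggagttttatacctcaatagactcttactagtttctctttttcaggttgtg
Btla: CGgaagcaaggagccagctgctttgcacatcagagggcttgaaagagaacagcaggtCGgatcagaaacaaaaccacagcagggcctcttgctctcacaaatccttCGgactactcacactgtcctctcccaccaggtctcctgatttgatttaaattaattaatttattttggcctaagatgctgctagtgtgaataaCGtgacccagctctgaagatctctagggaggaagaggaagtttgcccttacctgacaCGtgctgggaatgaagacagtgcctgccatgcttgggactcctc
Cd200: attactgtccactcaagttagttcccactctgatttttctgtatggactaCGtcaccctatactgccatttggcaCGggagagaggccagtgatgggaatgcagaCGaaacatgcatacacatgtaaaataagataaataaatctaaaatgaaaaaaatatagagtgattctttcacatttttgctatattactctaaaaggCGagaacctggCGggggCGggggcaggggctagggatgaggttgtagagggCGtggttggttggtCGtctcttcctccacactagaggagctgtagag
The stretches held 3 CG dinucleotides in Cd80, 5 in Btla and 8 in Cd200, where the median over 17492 protein-coding promoters was 13 and 94.8% held at least 1 CG, a motif that reads the same on both strands. The other matched members had 5 (Tigit), 1 (Cd200r4) and 4 (Cd96). All 6 thus lay below the median in CG count, the covered and the uncovered promoters alike. A start site inside an island was uncommon in general, at 1.51% of these genes on day 0 and 2.21% on day 3. Among the 6 members it was found for none on day 0 and for Cd80 alone on day 3.

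Btla, the gene of the inhibitory receptor for HVEM (chromosome 16, 45223705 to 45252895), was free of islands on day 0, and 4 day 3 islands covered 13.7 kb or 46.9% of its body. The 4 islands followed one another from 8.86 kb downstream of the start site to beyond the end of the gene, with 256, 218, 191 and 244 reads (55.7, 51.9, 53.1 and 58.1 reads per kb). Their density was 0.98 to 1.1 times the median of the day 3 list, and all 4 intervals reached that median. When the body was divided into 3 equal parts, 2.4% of the first, 87.7% of the middle and 50.7% of the last part was covered. Of all protein-coding genes, without a match for length or chromosome, 2.7% had as large a share of their body covered on day 3. The nearest day 0 island, at 45271601 to 45274400 with 113 reads, began 18.7 kb past the gene end.

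Upstream of Btla, day 0 and day 3 islands occupied partly the same ground. Atg3, which encodes an enzyme of autophagosome formation, had 8.6 kb in day 0 islands and 18.7 kb in day 3 islands. A pair of Atg3 islands overlapped between days, by 200 and 1200 bp. Slc35a5, a solute carrier gene next to Atg3, had 5 kb covered on day 0 and none on day 3. Day 0 islands covered 23.0 kb of the Btla body with its flanks and day 3 islands 63.8 kb (10% and 27.8%).

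Cd200 (45382111 to 45409060), which encodes the ligand of CD200R1 and lies 129 kb beyond Btla, had neither an island over its body nor one within 100 kb on day 0. It was the only member without a day 0 island in its region, a state shared by 32.0% of all protein-coding genes and 22.5% of those on chromosome 16. On day 3 an island of 9 kb (45381601 to 45390600) with 502 reads, 95% Poisson interval 459 to 548, covered 8.49 kb of the body. It held 55.8 reads per kb, 1.06 times the list median, and it was the longest island over any member body. Cd200 is read from the minus strand, so the island lay over the 3' end: 94.5% of the last of 3 equal parts was covered and nothing of the first and middle parts. Its near edge was 18.45 kb from the start site. The day 3 island nearest to the start site stood 6.55 kb upstream of it.

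The day 0 list had no island from 45274401 to 45689600, a stretch of 415 kb that holds Cd200. Gaps at least this long made up 5.37% of the 19965 gaps between neighbouring day 0 islands on autosomes, where the median gap was 54.0 kb, but they held 33.5% of all bases in gaps. In the same stretch the day 3 list had 15 islands with 3399 reads, covering 60.4 kb or 14.5%, at 44.6 to 82.9 reads per kb. The densest island of all the member regions was among them, a short one of 1.4 kb (45485401 to 45486800) with 116 reads. The region of Cd200 with its flanks was covered over 46.1 kb on day 3, or 20.3%, and 5.12% of protein-coding genes had as large a share. The excess over day 0, 20.3 percentage points, was matched or passed by 1.33% of all protein-coding genes and by 1.91% of those on chromosome 16. With only islands of at least median density the Cd200 excess was 24.0 kb. The smallest excesses in percentage points, at Cd86 and Cd80, were matched or passed by 23.7% and 22.1% of all protein-coding genes. On chromosome 16 these shares were 38.7% and 37.4%.

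Cd200r1 (44765736 to 44794977), the gene of the inhibitory CD200 receptor, was likewise free of islands on day 0 and carried 3 on day 3. These held 190, 311 and 166 reads (47.5, 48.6 and 51.9 reads per kb) and together covered 13.6 kb, 46.5% of the body. Its coverage was thus nearly the same as that of Btla, but the 3 islands were each below the median density of the day 3 list, at 0.90, 0.92 and 0.98 times, with intervals that reached the median. With islands of at least median density none was left over Cd200r1, where Btla kept 9.49 kb. With the day 3 list cut to the length of the day 0 list by keeping the islands with the most reads, 6.4 kb was left in Cd200r1 and 10.1 kb in Btla. Covered sequence lay in the lower-coordinate and middle parts of the body (68.6% and 71.0%) and not in the higher-coordinate part. Cd200r4 (44811650 to 44839150), the neighbouring gene of the activating paralog, had no island over its body on either day.

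The island closest to Cd200r4 was common to both days. It began at 44842001, 2.85 kb past the gene, in both lists. On day 0 it ended at 44845600 and held 137 reads (38.1 per kb), and on day 3 it ended at 44846400 and held 240 reads (54.5 per kb). Its density was 1.12 and 1.03 times the median of the respective list. The further paralogs of the cluster differed from each other. Cd200r2 had 3.24 kb under a day 0 island of 227 reads and, elsewhere in the gene, 3 kb under a day 3 island of 166 reads, while Cd200r3, a gene of 115 kb, had no island on day 0 and 5 islands with 1500 reads over 29 kb on day 3. Reads from similar stretches of these paralogs could be assigned to the wrong copy or dropped, and how multiply mapping reads were treated is not stated in the labels, so values within the Cd200r cluster are uncertain.

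Tigit (43626137 to 43665125), the gene of an inhibitory receptor for CD155, was the only member with less of its body covered on day 3 than on day 0, which held for 12.1% of all protein-coding genes. A day 0 island at 43642401 to 43647000 with 154 reads covered 4.6 kb, and a day 3 island at 43627001 to 43629400 with 135 reads covered 2.4 kb. They lay 17.2 and 34.8 kb downstream of the start site, respectively. Of the 2 RefSeq transcripts of Tigit 1 is a predicted one, and which of them sets the gene borders used here was not examined. The day 3 island fell within the 8.26 kb that the Tigit body shares with the end of Zbtb20, a transcriptional repressor gene of 759 kb, so it cannot be assigned to either gene. Outside this shared stretch Tigit had 4.6 kb covered on day 0 and nothing on day 3. The microRNA gene Mir568, which lies inside Tigit, lay outside islands on both days and ended 1.66 kb below the day 0 island. At 33.5 reads per kb the day 0 island was below the least dense day 3 island. Without such islands the difference turned, with 2.4 kb on day 3 and none on day 0. With the day 3 list cut to equal length it grew instead, with 4.6 kb on day 0 and none on day 3.

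Around Tigit the order was the opposite of that within the gene. The single day 0 island inside it was the only one in the whole region, with the nearest others 156 kb below and 180 kb above the gene, whereas the day 3 list had 9 islands over 39.3 kb. Of these, 6 lay in Zbtb20 and made up 22.9 kb. Outside Zbtb20 the region had 4.6 kb in day 0 islands and 16.4 kb in day 3 islands. Zbtb20 as a whole, most of it beyond the Tigit region, had 12 day 0 islands over 63.6 kb and 51 day 3 islands over 259 kb. The region was covered to 1.92% on day 0 and 16.4% on day 3. Of the day 3 islands the longest (43740601 to 43750400, 509 reads) ended below Drd3, a dopamine receptor gene, which was itself covered over 9.38 kb on day 3 only.

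Cd96 (46035652 to 46120248), the gene of another CD155 receptor, carried 1 island on day 0 and 5 on day 3. The day 0 island (46100401 to 46103600, 128 reads) covered 3.2 kb, and the day 3 islands covered 13.8 kb with 218, 136, 135, 91 and 193 reads. The day 3 islands were scattered from 24.05 to 79.45 kb downstream of the start site, and 3 of them, 1.2 to 2.0 kb long, held 67.5 to 75.8 reads per kb, 1.28 to 1.43 times the list median with intervals above it. Short islands were dense in the whole list too: the 4293 day 3 islands of at most 2 kb had a median of 1.24 times the list median. The longer Cd96 islands were less dense. That at 46040801 to 46045000 was at 0.98 times the list median. That at 46091801 to 46096200 was at 0.83 times, with an interval below the median (0.72 to 0.96). With the list cut in the same way, the excess of day 3 in the Cd96 body was 1 kb instead of 10.6 kb, and with islands of at least median density it was 2 kb.

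Upstream of the Cd96 start the day 3 list had 7 islands. The longest of the member regions stood there, 13.6 kb from 46163401 to 46177000 with 714 reads. Day 0 islands were absent on this side and stood on the other, where 1 of them overlapped a day 3 island by 2600 bp. The region as a whole had 12.8 kb in day 0 islands and 59.6 kb in day 3 islands.

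The costimulatory ligand genes lie at lower coordinates than the receptor genes just described. Cd80 (38457430 to 38495958) had no day 0 island and a single day 3 island over its body, at 38457201 to 38463000 with 260 reads (229 to 294). It ran from position -1.73 kb to position 4.07 kb relative to the start site and covered the promoter printed above. With 44.8 reads per kb, 0.85 times the list median (interval 0.75 to 0.96), it was among the less dense day 3 islands, and it was lost with islands of at least median density. Cd86 (36568956 to 36666158) had 3.8 kb covered on day 0 by 1 island with 143 reads and 9.4 kb on day 3 by 3 islands with 203, 120 and 145 reads. The first of these was the least dense day 3 island over any member, at 39.0 reads per kb or 0.74 times the median. With the day 3 list cut to equal length Cd86 had no island left on day 3.

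**Figure D3:**
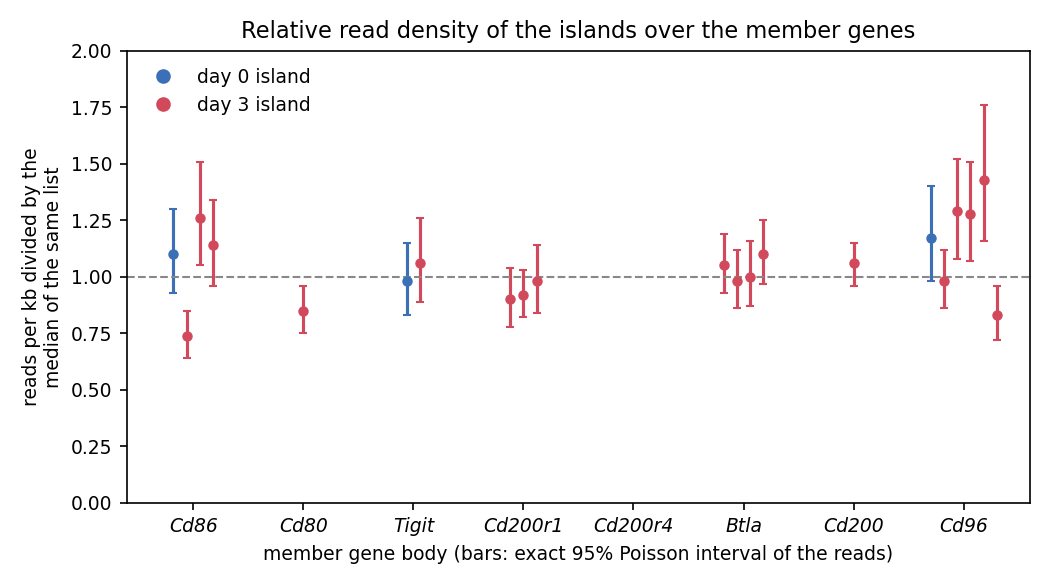
Read density of each island over a member gene body, divided by the median density of all islands in the same list (vertical axis), with bars for the exact 95% Poisson interval of its reads and a dashed line at the list median. Of 18 day 3 islands 4 had an interval above the median and 3 below it, and all 3 day 0 islands had intervals that reached it.

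Taken with their flanks, 7 of the 8 members had at least 1 island on day 0, against 68.0% of all protein-coding genes, and all 8 on day 3, against 67.4%. These shares were not matched for length or chromosome. Genes without a day 0 island within 100 kb made up 32.0% of all protein-coding genes but 22.5% of those on chromosome 16. All 8 had more covered sequence on day 3 than on day 0, a state found for 45.9% of all protein-coding genes and 62.4% of those on chromosome 16. Because Cd200r1 and Cd200r4, and likewise Btla and Cd200, share flanks, the 8 regions make 6 separate ones of 1720 kb in all. Islands covered 91.1 kb of these (5.3%) on day 0 and 277 kb (16.1%) on day 3, a ratio of 3.04. The ratio was 1.56 at Cd86, 1.78 at the Cd200r pair, 2.08 at Cd80, 3.88 at Btla and Cd200, 4.66 at Cd96 and 8.54 at Tigit. The first 3 values were below the ratio for chromosome 16 as a whole (2.51), and the others above it. The Tigit ratio rested on 1 day 0 island of 4.6 kb, and 22.9 of the 39.3 kb on day 3 lay in Zbtb20. The median member region was covered to 4.84% on day 0 and 15.8% on day 3, and the median over all protein-coding genes was 2.57% and 2.89%. It was 3.58% and 5.59% over the genes of chromosome 16, and 3.79% and 4.21% over genes of the members' length. With the day 3 list cut to equal length or with islands of at least median density, the total excess of 186 kb on day 3 was 89.3 or 82.8 kb, and the excess at Cd86 turned to -7 or -1.8 kb. The excess at Cd80, 10.6 kb, was 1 kb with equal list length and turned to -2.2 kb with islands of at least median density. The excess at Tigit, 34.7 kb, was 20.1 kb with equal list length and 4.8 kb with islands of at least median density.

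**Figure D4:**
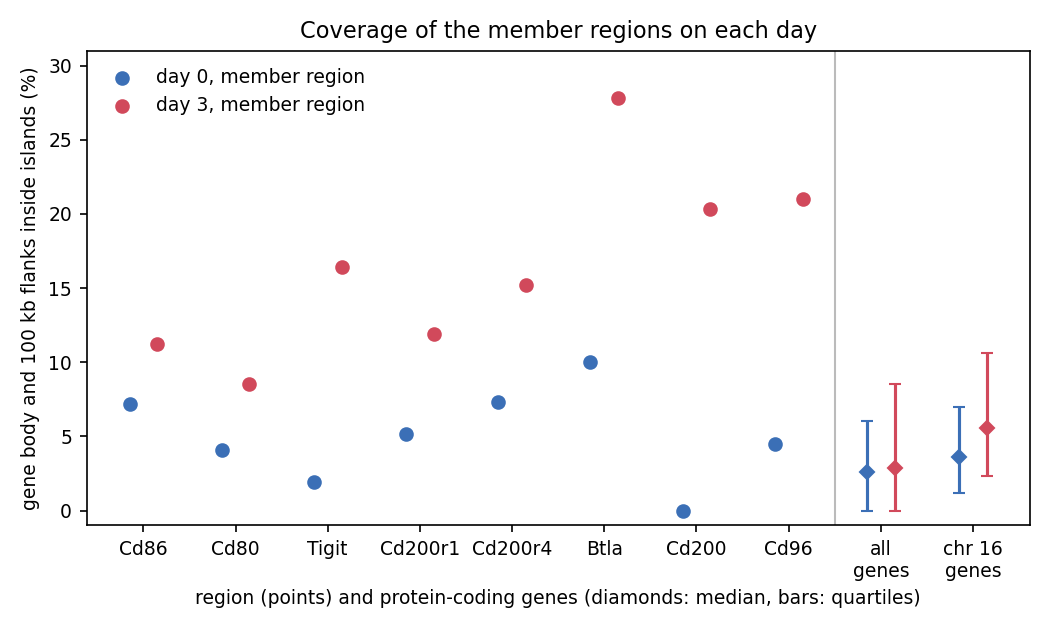
Share of each member gene body with 100 kb flanks inside islands (points, percent) on day 0 and day 3, beside the median and quartiles of the same measure over all protein-coding genes and those of chromosome 16 (diamonds and bars). On day 3 the Btla, Cd96 and Cd200 regions, at 27.8%, 21.0% and 20.3%, stood farthest above the upper quartile of 8.55% for all genes.

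Relative to the island reads of its own library, the member regions differed in which day had the larger share. Reads of islands in the Tigit region made up 45.3 per 1000000 island reads on day 0 (95% Poisson interval 38.4 to 53.0) and 201 on day 3 (193 to 210). In the Cd96 region the values were 127 (115 to 139) and 336 (325 to 347). In the Btla region they were 233 (217 to 250) and 342 (331 to 354), and the Cd200 region had 261 (251 to 271) on day 3 with no island listed on day 0. The Btla and Cd200 regions share flanking islands, as do those of Cd200r1 and Cd200r4, so that their shares do not add up. At Tigit, Cd96 and Btla the day 3 interval lay above that of day 0, whereas for Cd200 no day 0 share was listed to compare with. The intervals of the days overlapped for Cd80 (106 and 101 per 1000000), Cd200r1 (135 and 130) and Cd200r4 (159 and 173). The Cd86 region had the smaller share on day 3, 165 (157 to 173) against 220 (204 to 236). These intervals cover counting error only, since PCR copies of a molecule cannot be told from separate molecules here, and the share depends on how much of the genome each list calls.

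**Figure D5:**
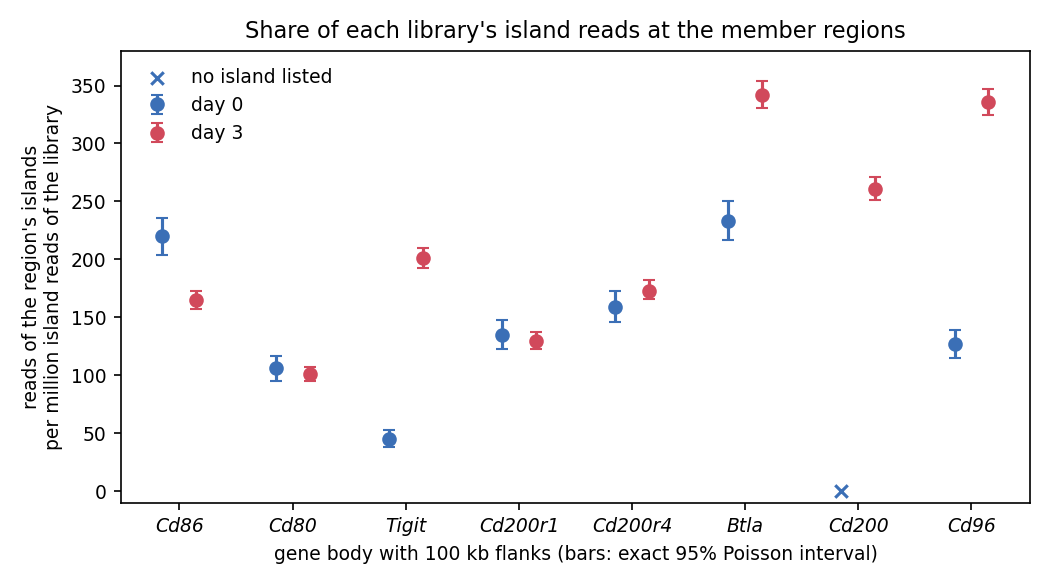
Reads of the islands in each member region per 1000000 island reads of the same library (vertical axis) on day 0 and day 3, with exact 95% Poisson intervals. The Tigit, Btla and Cd96 regions had the larger share on day 3, Cd86 the smaller, Cd200 had no island listed on day 0, and the intervals of the days overlapped for Cd80, Cd200r1 and Cd200r4.

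Few islands were common to both days. In the member regions 6 of 20 day 0 islands met a day 3 island (30%, exact binomial interval 11.9 to 54.3), close to the 33.6% of the whole day 0 list. In the other direction 6 of 66 did (9.09%, interval 3.41 to 18.7), where the whole day 3 list had 14.9%. Both intervals treat islands as independent, although these are neighbours within 6 regions of 1 library per day, so they may be too narrow. The 6 overlapping pairs lay in the flanks, in Slc15a2, a peptide transporter gene near Cd86, in Atg3, past Cd200r4 and near Cd96. Their read density on day 3 was 1.43 to 1.88 times that on day 0 with a median of 1.56, which does not stand apart from the median of 1.57 over 7306 such pairs of the whole lists. Of the 20 day 0 islands, 9 were less dense than every day 3 island, as were 50.4% of the whole day 0 list.

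Among the other 22 protein-coding genes that reach into the member regions, 12 had an island over the body on day 0 and 15 on day 3, 10 of them on both days and 5 on neither. These shares, 54.5% and 68.2%, also stood above the 22.7% and 27.1% of all protein-coding genes, without a match for length. Slc35a5 and Gtpbp8 had one on day 0 only. Those with one on day 3 only were Drd3, Gm609, Gm17783, Plcxd2 and Poglut1. The calcium-sensing receptor gene Casr, beside Cd86, had none on either day. Phldb2, a gene of 207 kb below Cd96, had 14.4 kb in day 0 islands and 51.8 kb in day 3 islands.

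Of 23 genes of partners and relatives of the 8 proteins, 4 had an island over the body on day 0 (17.4%) and 8 on day 3 (34.8%), and both lists lacked one for the other 14, beside 22.7% and 27.1% of all protein-coding genes with one. The genes of the BTLA partner HVEM (Tnfrsf14), of CD155 (Pvr) and of CTLA-4 (Ctla4) had none, nor had the inhibitory receptor genes Pdcd1, Lag3 and Havcr2. Cd226, whose product competes with TIGIT and CD96, had 6.4 kb covered on day 0 (197 reads) and 46.8 kb on day 3 (2785 reads). Nectin3, a nectin gene farther along chromosome 16, had no island on day 0 and 39 kb covered on day 3 by 6 islands with 1914 reads. Cd28, the receptor gene for CD80 and CD86, was covered over 6.21 kb on day 3 only, and Icos, a costimulatory receptor gene on the same chromosome 1, over 3.2 kb on day 0 only. Cd274 and Pdcd1lg2, the genes of the PD-1 ligands, were covered over 4 and 11.6 kb on day 3 only, and Vtcn1, a further B7 family gene, had 2.2 kb in day 0 islands and 6.6 kb in day 3 islands.

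The genes closest to a member in covered share of the body on the 2 days, among genes within 1.5 times its length, were scattered over the genome. For Btla they were Akr1cl, Cd200r1 and Bpnt2, and for Cd200r1 they were Akr1cl, Vapa and Btla, all with no coverage on day 0 and 46.2% to 47.4% on day 3. Btla and Cd200r1 were thus each within the closest 3 of the other, out of 4648 and 4646 genes compared, at a distance of 0.407 percentage points. The ranking used these same values, so likeness in them follows from the rule and does not measure how rare the pair is. With islands of at least median density the pair differed, with 9.49 kb in Btla and none in Cd200r1. Closest to Cd200 were Ifi207, Lipm and Tyw5, each at 31.5% on day 3 and none on day 0. Hdac2 was closest to Cd80, Heatr1 to Tigit, Brip1 to Cd86 and Ahrr to Cd96. With 2 libraries such likeness rests on 2 values per gene.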

How the data were processed

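H3K9me3 native ChIP libraries of day 0 and day 3 were analysed, 1 per day; the 2 input libraries were not analysed here. The submitters' processing notes name Bowtie2, SICER version 1.1 and build mm10. The threshold, gap size, duplicate treatment and use of input are not stated in the labels. The authors deposited island borders and, without a column name, a whole number per island, read here as a raw count of reads because it followed island length (Pearson's r = 0.95 and 0.966 across islands); it is not scaled for depth, length or input. Depth outside islands is unknown. Starts fell on multiples of 200 bp, and positions were converted to 1-based coordinates.

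Covered bases were computed with Python 3.11.15, numpy 2.4.6 and pandas 2.3.3, after a check on simulated islands, and Poisson and binomial intervals with scipy 1.17.1. An overlap of 1 bp counted. Gene bodies, without exons, came from RefSeq GRCm38.p6. The RefSeq transcripts of a gene include predicted ones, such as 4 of 5 for Cd86 and 1 of 2 for Tigit. An island over such a body may therefore lie outside the curated transcripts. Named are the members, genes reaching into their regions and listed partners. The members and lists were chosen with earlier results of these data known. No test between days was possible. Alternatives changed the islands counted, the overlap and the flanks.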

Additional observations from a re-analysis of the deposited data

How the results depend on the processing

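No paired analysis was possible because there was 1 library per day. Values were held to have moved when they differed by more than 1.5 times. The counts of members with an island stayed within that limit under every alternative tried: over the body they were 2 or 3 on day 0 and 5 or 7 on day 3. The shares over all protein-coding genes were not recomputed under these alternatives, so the contrast with them was not checked. Covered sequence in the merged regions moved more. With the day 3 list cut to equal length, keeping the islands with the most reads (median length 5.2 kb, against 3 kb for those removed), it was 180 kb on day 3, an excess over day 0 of 89.3 kb. With islands of at least median density it was 44 kb on day 0 and 127 kb on day 3, an excess of 82.8 kb, and without day 0 islands less dense than any day 3 island it was 44 kb on day 0. Flanks of 50 kb gave 46.6 kb on day 0, and flanks of 200 kb gave 140 kb and 478 kb, an excess of 339 kb, since shorter or longer stretches were summed. Among differences of single members, 6 of 80 changed sign, 29 moved by more than 1.5 times and 45 stayed within that limit; the Cd80 and Cd200r1 bodies had no excess left (0 kb) with the median density limit. With equal list length the day 3 excess was -3.8 kb in the Cd86 body and -7 kb in its region. With the median density limit it was -1.8 kb in the Cd86 region, -2.2 kb in the Cd80 region and 2.4 kb in the Tigit body, and in Tigit it was also 2.4 kb without the least dense day 0 islands. A shorter day 3 list and fewer islands are what these settings construct; other causes were not tested. The number of reads sequenced outside islands is unknown, which limits any comparison of density between days.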
